A study of Mus musculus with 24 samples.

Results

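The genes described here encode the minichromosome maintenance (MCM) proteins, Mcm2, Mcm3, Mcm4, Mcm5, Mcm6, Mcm7, Mcm8 and Mcm10. They were chosen by name, as the rows of a table of 17721 genes whose mouse Ensembl identifier carries one of these symbols, and all 8 were found. The table is the authors' comparison of daily rhythms in back skin epidermis between EpiKO mice and wild-type (WT) mice. In EpiKO mice Bmal1, listed as Arntl and one of the activators of the clock, is deleted by K14-Cre. The keratin 14 promoter is active in basal keratinocytes, so pigment cells and immune cells in the same preparation are not expected to lose the gene. The EpiKO group was 24 male C57BL/6 mice aged 8 weeks, 4 at each of zeitgeber time (ZT) 0, 4, 8, 12, 16 and 20, on standard chow under 12 h of light from ZT0 and 12 h of dark. The WT group is described in the labels' protocols by the same age, sex and sampling scheme, and its alleles at Bmal1 and Cre were not stated. All 24 libraries of the series are EpiKO and none is WT, so the WT values enter only through the authors' fit. Bulk epidermis does not distinguish fewer cells in S phase from less RNA per cell.

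MCM2 to MCM7 form the ring-shaped motor of the replicative DNA helicase. The ring is loaded onto origins by the origin recognition complex with CDC6 and CDT1 before S phase, and is switched on later by CDC45 and the GINS complex. MCM10 takes part in that activation and in starting synthesis at the fork, and MCM8 acts with MCM9 in homologous recombination. The loading genes are known targets of E2F transcription factors, which drive entry into S phase. In epidermis the proliferating cells lie in the basal layer and in growing hair follicles.

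All 8 MCM genes were assigned a daily rhythm in WT epidermis, and 7 of them were assigned none in EpiKO. The assignment is the rhythm model with the largest weight, a number from 0 to 1 that the authors' fit gives each of 5 models, where that weight is at least 0.5. Mcm10 was assigned different rhythms in the 2 genotypes. Over all 17721 genes, 27.7% were assigned a rhythm in WT, 8.41% a rhythm in WT only, 2.65% different rhythms, 16.7% the same rhythm, 4.31% a rhythm in EpiKO only and 56.7% none. A rhythm in EpiKO of any class was assigned to 23.6%, against 1 of the 8. All 8 assignments also held at a weight of at least 0.8, which 3.72% of genes reached for WT only and 1.61% for different rhythms. No MCM gene was assigned the same rhythm in both genotypes or a rhythm in EpiKO only. Among the 7975 genes with mean levels within the range of the members, the shares were 11.4% for WT only and 3.95% for different rhythms. All values are of the authors' fitted curves. The table names one side of its comparison WT_LD and the other FC_LD, and FC_LD was read as EpiKO because the series compares EpiKO with WT, so every EpiKO value rests on that reading. The table used here holds none per animal, so the spread between animals and the depth cannot be given, no difference was tested across animals, and genotype cannot be told apart from the set of libraries.

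The ring subunits peaked close together in WT, early in the dark phase. In the authors' deposited table the WT peaks were at ZT13.2 for Mcm6, ZT13.3 for Mcm4, ZT13.8 for Mcm2, ZT13.9 for Mcm3, ZT14.2 for Mcm5 and ZT14.3 for Mcm7, a span of 1.06 h. This order rests on fitted times without an error, and neighbours in it cannot be told apart. Their circular mean was ZT13.8, with an SD over the 6 genes of 0.442 h, and collection times were 4 h apart. Peak over trough of the fitted WT curve was 2.57-fold for Mcm2, 2.53-fold for Mcm3, 2.21-fold for Mcm5, 2.02-fold for Mcm6, 1.80-fold for Mcm4 and 1.65-fold for Mcm7 in the authors' deposited table. The median over all 8 MCM genes was 2.11-fold, against 1.29-fold over the 4914 genes rhythmic in WT. Mcm2 and Mcm3 had nearly the same WT curve, with peaks 0.0553 h apart.

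**Figure D1:**
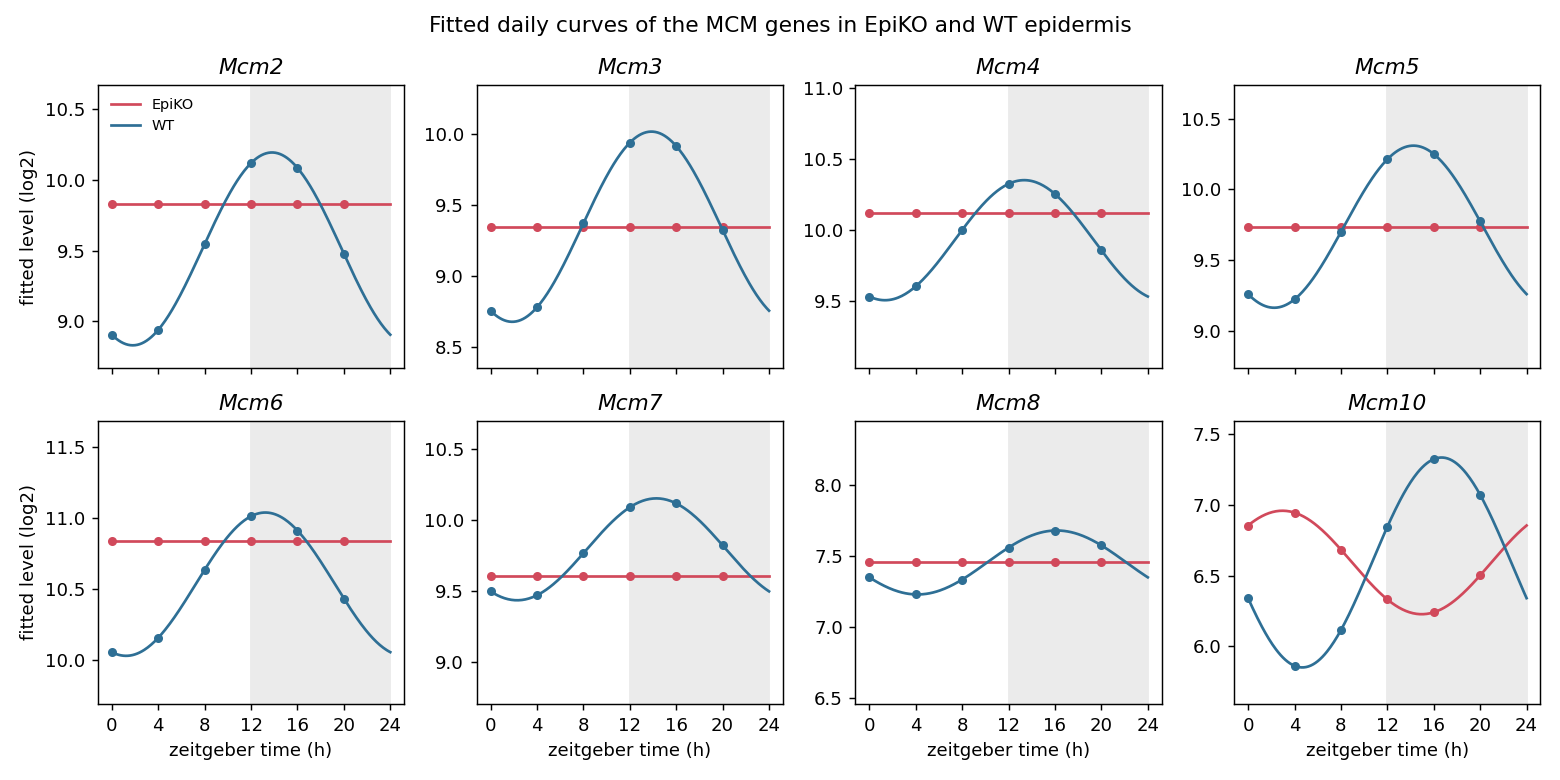
Fitted level (log2) of each MCM gene against zeitgeber time (h), with EpiKO in red and WT in blue. Points mark the 6 collection times and shading the dark phase, and all panels have the same height in log2 units. The EpiKO curve is flat for 7 genes because their assigned model has no rhythm there, and Mcm10 peaks at ZT2.96 in EpiKO and ZT16.7 in WT.

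Fitted levels show how the flat EpiKO line lay against the WT day. Mcm2 (ENSMUSG00000002870) stood at a log2 level of 9.82 at every time in EpiKO, against 8.91, 8.94, 9.55, 10.12, 10.08 and 9.48 at ZT0, 4, 8, 12, 16 and 20 in WT, in the curves of the authors' deposited table. The EpiKO level of Mcm2 was thus above WT at ZT0, 4, 8 and 20 and below it at ZT12 and ZT16. Mcm6 (ENSMUSG00000026355) stood at 10.84 in EpiKO, against 10.06, 10.16, 10.64, 11.01, 10.91 and 10.43 in WT at the same times in the authors' deposited table. Mcm4 (ENSMUSG00000022673) stood at 10.12 in EpiKO, against 9.53, 9.60, 10.00, 10.32, 10.25 and 9.86 in WT in the authors' deposited table. In EpiKO both genes were above and below WT at the same collection times as Mcm2.

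Mcm3 and Mcm5 were fitted with 1 mean for both genotypes, which places the EpiKO line midway in the WT range by construction. Mcm3 (ENSMUSG00000041859) stood at 9.35 in EpiKO, against 8.76, 8.78, 9.37, 9.94, 9.92 and 9.32 in WT in the authors' deposited table. Mcm5 (ENSMUSG00000005410) stood at 9.74 in EpiKO, against 9.26, 9.22, 9.70, 10.21, 10.25 and 9.77 in WT in the authors' deposited table. Mcm7 (ENSMUSG00000029730) stood at 9.61 in EpiKO, against 9.50, 9.47, 9.77, 10.09, 10.12 and 9.82 in WT in the authors' deposited table. The EpiKO level of Mcm7 was above WT at ZT0 and ZT4 only, unlike those of Mcm2, Mcm4 and Mcm6.

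**Figure D2:**
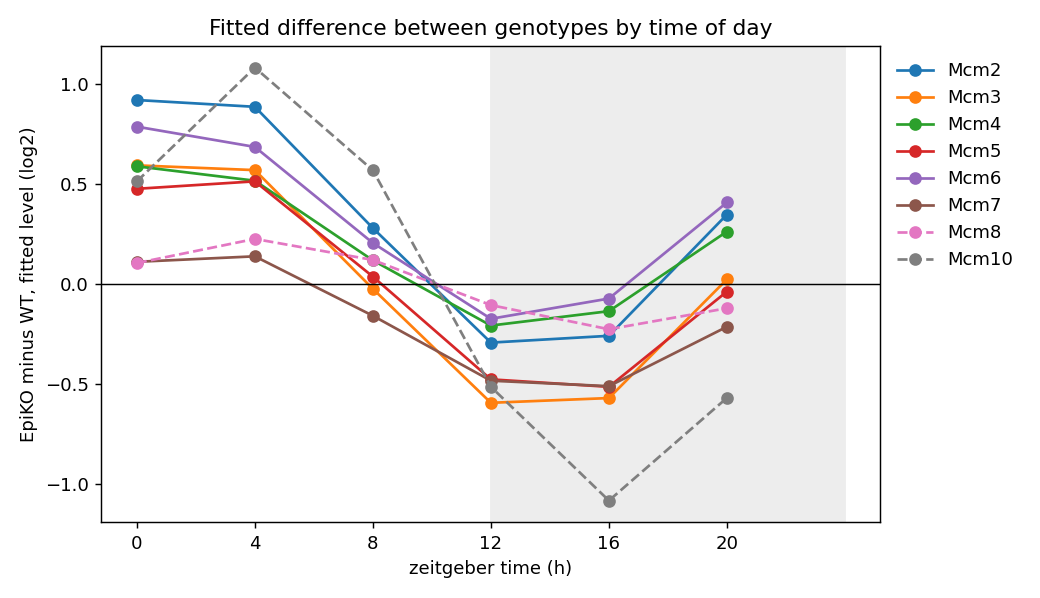
Fitted EpiKO minus WT difference (log2) of each MCM gene at the 6 collection times, with solid lines for Mcm2 to Mcm7, dashed lines for Mcm8 and Mcm10 and shading for the dark phase. The lines lie above 0 at ZT0 and ZT4 and below 0 at ZT12 and ZT16 for all 8 genes.

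The differences had the same sign in all 8 genes at 4 of the 6 times. At ZT4 the EpiKO minus WT difference was largest for Mcm10 (1.08), Mcm2 (0.88) and Mcm6 (0.68) and smallest for Mcm7 (0.14), on the log2 scale of the authors' deposited table. At ZT16 it was -1.08 for Mcm10, -0.57 for Mcm3, -0.51 for Mcm5 and Mcm7, and -0.07 for Mcm6 in the authors' deposited table. These differences are computed from the fitted means and rhythms and are no result apart from them.

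Upstream sequences of the MCM genes were read for words bound by factors of the cell cycle and the clock. RefSeq (GRCm38.p6, the assembly of mm10) gave a start for 7 of the 8 genes, not for Mcm4, and the 250 bases before each start were searched on both strands. Mcm7 had 2 starts, and a gene was counted if any of its windows held a word. The E2F words were TTTCGCGC, TTTGGCGC, TTTCCCGC and TTTGCCGC, and 3 of 7 MCM genes held at least 1 of them, namely Mcm5, Mcm6 and Mcm7. Of 13582 genes of the table with such a window 3.25% held one, as did 1.86% of all 32851 windows. The word CCAAT, bound by NF-Y, was found in 7 of 7 MCM genes and in 39.5% of the genes of the table, or 33.8% of all windows. The E-box CACGTG, to which BMAL1 with CLOCK can bind, was found upstream of 1 of 7, Mcm8, and in 8.95% of the genes of the table, or 6.02% of all windows. The words TTTGAA and TTCGAA of the cell cycle homology region were found in 2 of 7, Mcm2 and Mcm7, and in 15.4% of the genes of the table, or 17.1% of all windows. Of the other lists described later, E2F words were found in 3 of 8 origin genes, 2 of 9 helicase activation genes, 2 of 17 fork genes, 3 of 8 genes for E2F factors and pocket proteins, 1 of 3 MCM-associated genes and 1 of 14 mitosis genes with a window. The word CCAAT was found in 4 of 8, 4 of 9, 9 of 17, 4 of 8, 1 of 3 and 12 of 14 genes of the same lists in that order. The second window of Mcm7 held a CCAAT word and none of the other words. Matches are descriptions of letters only.

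The windows below are the stretches upstream of Mcm5 (chr8:75109259-75109508, plus strand) and Mcm6 (chr1:128359706-128359955, minus strand), which hold overlapping E2F words, of Mcm2 (chr6:88898781-88899030, minus strand), which has the largest amplitude of the ring genes and no such word, and of Mcm10 (chr2:5012792-5013041, minus strand), the gene with a rhythm in EpiKO. Capitals mark E2F and CCAAT words on either strand.
Mcm5: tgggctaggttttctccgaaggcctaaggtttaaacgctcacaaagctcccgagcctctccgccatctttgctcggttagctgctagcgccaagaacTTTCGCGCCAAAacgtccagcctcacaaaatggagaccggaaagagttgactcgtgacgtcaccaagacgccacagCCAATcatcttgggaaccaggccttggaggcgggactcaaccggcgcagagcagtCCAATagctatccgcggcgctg
Mcm6: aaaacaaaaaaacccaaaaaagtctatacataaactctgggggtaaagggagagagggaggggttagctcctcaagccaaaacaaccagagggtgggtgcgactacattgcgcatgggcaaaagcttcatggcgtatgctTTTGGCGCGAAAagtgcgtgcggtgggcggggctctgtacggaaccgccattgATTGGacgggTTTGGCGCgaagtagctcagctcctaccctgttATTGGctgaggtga
Mcm2: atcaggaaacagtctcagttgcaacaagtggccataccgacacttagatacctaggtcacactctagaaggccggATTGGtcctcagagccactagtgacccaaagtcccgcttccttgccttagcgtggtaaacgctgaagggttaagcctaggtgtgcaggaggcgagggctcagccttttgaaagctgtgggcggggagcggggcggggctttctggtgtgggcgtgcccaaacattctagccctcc
Mcm10: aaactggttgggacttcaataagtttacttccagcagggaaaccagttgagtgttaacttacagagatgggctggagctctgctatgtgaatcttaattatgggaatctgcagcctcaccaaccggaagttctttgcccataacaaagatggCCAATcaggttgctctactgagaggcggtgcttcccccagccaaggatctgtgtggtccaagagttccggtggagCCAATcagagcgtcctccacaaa
In Mcm5 the words TTTCGCGC and, on the other strand, TTTGGCGC overlap and together cover positions -153 to -142 from the start. In Mcm6 a like pair covers -110 to -99, and another TTTGGCGC lies at -47 to -40, between CCAAT words read on the opposite strand. Mcm5 and Mcm6, which hold such pairs, had WT peaks at ZT14.2 and ZT13.2, and Mcm2, which holds none, at ZT13.8 in the authors' deposited table.

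Mcm8 (ENSMUSG00000027353) had the smallest rhythm of the family and a later WT peak than the ring genes. It stood at a log2 level of 7.46 in EpiKO, against 7.35, 7.23, 7.34, 7.56, 7.68 and 7.58 at ZT0, 4, 8, 12, 16 and 20 in WT in the authors' deposited table. Its WT curve peaked at ZT16.2 with a peak over trough of 1.37-fold in the authors' deposited table. Its weights for the same rhythm, 0.0245, and for no rhythm, 0.0135, were the largest of the 8 genes in the authors' deposited table.

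Mcm10 (ENSMUSG00000026669) had the largest WT amplitude of the family and a rhythm in EpiKO at an almost opposite time of day. Its log2 level was 6.85, 6.94, 6.68, 6.33, 6.24 and 6.50 in EpiKO, against 6.34, 5.86, 6.11, 6.84, 7.32 and 7.07 in WT, at ZT0, 4, 8, 12, 16 and 20 in the curves of the authors' deposited table. The EpiKO curve was highest at ZT4 and lowest at ZT16, and the WT curve was lowest at ZT4 and highest at ZT16. Peak over trough was 1.66-fold in EpiKO and 2.79-fold in WT, with peaks at ZT2.96 in EpiKO and ZT16.7 in WT, in the authors' deposited table. Counted forward on the 24 h clock, the EpiKO peak thus came 10.3 h after the WT peak.

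How firmly the EpiKO rhythm was set aside differed among the genes assigned to WT only. For Mcm2 to Mcm7 the weight of the WT-only model was between 0.814 (Mcm2) and 0.932 (Mcm4), and nearly all the rest went to different rhythms, in the authors' deposited table. The ratio of these weights, WT only over different rhythms, was 4.36 for Mcm2, 4.57 for Mcm6, 5.90 for Mcm7, 7.71 for Mcm3, 8.23 for Mcm5, 9.98 for Mcm8 and 13.7 for Mcm4 in the authors' deposited table. The median ratio over the 1490 WT-only genes was 19.2, with quartiles of 8.88 and 31.6, and the largest over all genes was 48.0. All 7 ratios were below that median. Mcm2 and Mcm6 stood at percentiles 10.3 and 10.9 of the WT-only genes. For each of the 7 the model with a second, EpiKO rhythm was thus the runner-up, with less weight than the model without it. Summed over the 8 genes, the weight on any rhythm in EpiKO was 1.83, of which Mcm10 gave 0.918, in the authors' deposited table.

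**Figure D3:**
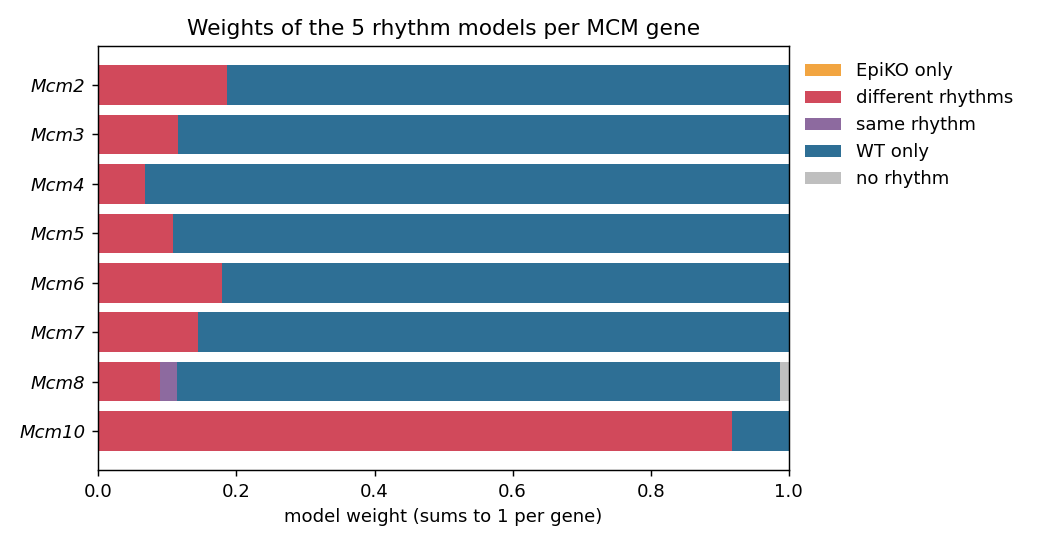
Weights of the 5 rhythm models for each MCM gene, stacked to 1 along the horizontal axis, as the authors' fit gives them. Different rhythms take 0.918 for Mcm10, and WT only takes 0.814 to 0.932 for Mcm2 to Mcm7.

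Mean levels over the day were fitted as different for 4 of the 8 genes, where a weight of at least 0.5 went to a model with 2 means. Mcm2 averaged 9.82 in EpiKO and 9.51 in WT, Mcm6 10.84 in EpiKO and 10.53 in WT, and Mcm4 10.12 in EpiKO and 9.93 in WT on the log2 scale of the authors' deposited table. Mcm7 was the other way, at 9.61 in EpiKO and 9.79 in WT in the authors' deposited table. The EpiKO minus WT differences were 0.31 for Mcm2, 0.31 for Mcm6, 0.19 for Mcm4 and -0.19 for Mcm7 on the log2 scale of the authors' deposited table. Mcm3, Mcm5, Mcm8 and Mcm10 were given 1 mean for both, with weights of 0.796, 0.841, 0.562 and 0.840 in the authors' deposited table. Over all genes 70.1% were fitted with different means, 32.7% higher in EpiKO and 37.4% lower, so 4 of 8 is no more than the background. With a smallest difference of 0.5 (log2), 0 of the 8 remained.

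Levels can be set beside each other between genes only per length. Per kb of all annotated exons, the log2 mean level of the ring genes was 8.62 in EpiKO and 8.31 in WT for Mcm6, 8.27 in EpiKO and 8.08 in WT for Mcm4, 7.74 in both for Mcm5, 7.46 in EpiKO and 7.65 in WT for Mcm7, 7.44 in both for Mcm3, and 7.03 in EpiKO and 6.71 in WT for Mcm2. Mcm8 and Mcm10 were lower, at 5.56 and 3.65 in both genotypes on the same scale. The place of Mcm2 depends on the length used, since its annotated exons cover 6956 bases and its longest coding transcript 3371. Per kb of the longest coding transcript, Mcm2 came to 8.07 in EpiKO and 7.76 in WT, and Mcm3 to 7.75 in both. Mcm2 thus stood above Mcm3 in EpiKO and close to it in WT on that scale, whereas per kb of all exons it stood below Mcm3 in both genotypes. On both scales Mcm6 was highest, and Mcm8 and Mcm10 lowest.

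Some MCM genes lie against other genes, and the neighbours with an assigned model were assigned to other classes. Mcm4 (chromosome 16, 15623897 to 15637400, mm10) starts 466 bases from Prkdc, which encodes the catalytic subunit of a DNA repair kinase and runs the other way. Prkdc was assigned no rhythm at weight 0.744 in the authors' deposited table. Mcm8 (chromosome 2, 132816141 to 132844197) starts 86 bases from Trmt6, a subunit of a tRNA methyltransferase, which was assigned no rhythm at weight 0.791 in the authors' deposited table. The difference between neighbours was not tested.

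Mcm7 is the member whose reads are least certain. On chromosome 5, 138164583 to 138172422 on the minus strand, 321 of its 4426 annotated exon bases overlap Ap4m1, a subunit of an adaptor complex, on the opposite strand. Ap4m1 was assigned the same rhythm in both genotypes, 1.18-fold with a peak at ZT9.56 at weight 0.675 in the authors' deposited table. Cops6, a subunit of the COP9 signalosome, overlaps 64 exon bases of Mcm7 at the other end and reached no assignment, with weights of 0.377 for no rhythm and 0.368 for WT only in the authors' deposited table. Of the 51-base windows of Mcm7 transcripts 22.8% also occur in another gene, 742 of 4603 in the processed pseudogene Gm5487, and for the other members this share was between 0 and 1.43%. The kit marks strand, and whether counting used it was not stated, so reads of the overlap may belong to either gene. The microRNA genes Mir25, Mir93 and Mir106b lie inside Mcm7, and their rows, which do not measure mature microRNAs in polyadenylated RNA, had mean levels of -2.41, -2.41 and -1.42 in EpiKO against 2.01, 1.33 and -0.13 in WT on the log2 scale of the authors' deposited table. The receptor genes Olfr90 and Vmn2r63 had the identical EpiKO value of -2.41, which may be a floor. The gaps of Mir25 and Mir93 should therefore not be read as measured drops.

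Proteins that bind MCM subunits or resemble them did not share the pattern, as far as their calls go. Mcm9, the partner of MCM8, was assigned no rhythm with a weight of 0.511, beside 0.435 for WT only, in the authors' deposited table. Mcm3ap, whose product acts in mRNA export and can acetylate MCM3, was assigned no rhythm at weight 0.658 in the authors' deposited table. Mcmbp, which binds MCM subunits outside the ring, had small rhythms of 1.15-fold in EpiKO and 1.17-fold in WT. Its peaks were at ZT17.3 in EpiKO and ZT13.2 in WT, the latter within the range of the ring genes. The weight for different rhythms was 0.638, beside 0.345 for the same rhythm, in the authors' deposited table. Mcmdc2, a germ-line relative, was assigned no rhythm and averaged 3.12 in EpiKO and 8.22 in WT on the log2 scale of the authors' deposited table.

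The genes that load the helicase were spread over more classes than the MCM genes. Of the 9 origin recognition and licensing genes, 3 were assigned to WT only, 2 to different rhythms, 1 to the same rhythm, 1 to EpiKO only and 2 to no rhythm. Orc1, the origin-binding subunit, had a WT amplitude of 3.60-fold at ZT13.9, and Gmnn, an inhibitor of CDT1, 1.61-fold at ZT14.5, both assigned to WT only in the authors' deposited table. The loading factor Cdt1 had 1.44-fold in EpiKO and 2.57-fold in WT, with peaks at ZT2.26 in EpiKO and ZT13.4 in WT, in the authors' deposited table. Cdc6 had 1.51-fold in EpiKO and 2.42-fold in WT, with peaks at ZT0.704 in EpiKO and ZT15.4 in WT, in the authors' deposited table. Both loading factors were thus assigned an EpiKO rhythm like that of Mcm10 in time, where the ring genes they load had none assigned. The weight for different rhythms was 0.981 for Cdc6 but 0.702 for Cdt1, beside 0.298 for WT only. The ring genes held 0.0682 to 0.186 on different rhythms, and the contrast between these calls was not tested.

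Of the 15 helicase activation genes 13 were assigned, 9 to WT only and 4 to different rhythms. Gins2, a GINS subunit, had 2.29-fold at ZT12.4 in WT, and Wdhd1, which links the helicase to DNA polymerase alpha, 2.08-fold at ZT14.1, both WT only in the authors' deposited table. Clspn, an adaptor of checkpoint signalling at the fork, had 1.80-fold in EpiKO and 2.53-fold in WT, with peaks at ZT4.41 in EpiKO and ZT17.6 in WT, in the authors' deposited table. Timeless, of the fork protection complex, had 1.44-fold in EpiKO and 2.40-fold in WT, with peaks at ZT1.46 in EpiKO and ZT14.3 in WT, in the authors' deposited table. The weight of Timeless for different rhythms was 0.753, beside 0.247 for WT only.

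Of the 20 replication fork genes 19 were assigned, 13 to WT only, 5 to different rhythms and 1 to no rhythm. Pole, the catalytic subunit of DNA polymerase epsilon, had 2.34-fold at ZT14.4 in WT and was WT only at weight 0.50, nearly equal to that of different rhythms, and Rpa2, of the single-strand binding complex, had 1.88-fold at ZT13.6, in the authors' deposited table. Lig1, the replicative ligase, had 1.35-fold in EpiKO and 2.05-fold in WT, with peaks at ZT2.24 in EpiKO and ZT14.5 in WT, in the authors' deposited table. Its weight for different rhythms was 0.717, beside 0.283 for WT only. Pold1, of DNA polymerase delta, had 1.36-fold in EpiKO and 1.92-fold in WT, with peaks at ZT22.7 in EpiKO and ZT14.7 in WT, in the authors' deposited table.

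Over these 3 lists, 37 of 41 assigned genes were rhythmic in WT, with a median amplitude of 1.66-fold, and 7 of the 37 exceeded the MCM median of 2.11-fold. The 25 WT-only genes among them had a median weight ratio, WT only over different rhythms, of 8.72. That value lies within the range of the MCM genes and, like theirs, under the 19.2 of all WT-only genes. The 11 genes with different rhythms peaked at a mean of ZT2.05 in EpiKO and ZT15.7 in WT. Counted forward on the 24 h clock, their EpiKO peaks came 8.07 to 12.9 h after the WT ones, with a median of 10.5 h. So counted, every shift appears as a delay, and peaks at nearly opposite times cannot be called later or earlier. The 10.3 h of Mcm10 lay within that range. In 10 of these 11 the amplitude was smaller in EpiKO, as it was for Mcm10.

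**Figure D4:**
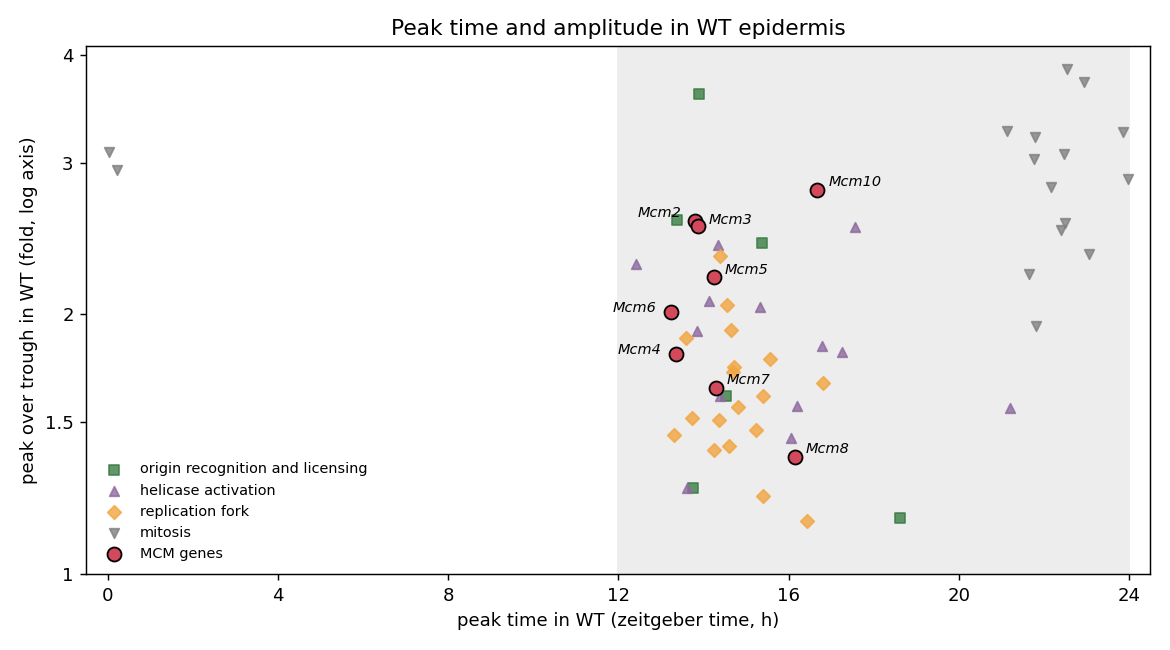
Peak over trough in WT (fold, log axis) against peak time in WT (h) for the 8 MCM genes in red and for genes of the listed pathways that were assigned a rhythm in WT, with shading for the dark phase. Mcm2 to Mcm7 gather between ZT13.2 and ZT14.3, Mcm8 and Mcm10 lie at ZT16.2 and ZT16.7, and mitosis genes lie around ZT22.6.

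The E2F genes themselves were mixed, and mitosis genes kept a rhythm in EpiKO. Of 11 genes for E2F factors and pocket proteins 9 were assigned, 3 to WT only, 2 to different rhythms, 3 to the same rhythm and 1 to no rhythm. E2f1, an activator, was WT only with 2.05-fold at ZT13.4, at weight 0.700 beside 0.300 for different rhythms. E2f2, another activator, had the same 1.63-fold rhythm in both genotypes with a peak at ZT20.8 in the authors' deposited table. The repressor E2f7 had 2.75-fold in EpiKO and 1.83-fold in WT, with peaks at ZT3.36 in EpiKO and ZT17.7 in WT, and E2f8 had 1.97-fold in EpiKO and 2.08-fold in WT, with peaks at ZT3.76 in EpiKO and ZT19.8 in WT, in the authors' deposited table. All 16 mitosis genes had different rhythms, with mean peaks at ZT5.75 in EpiKO and ZT22.6 in WT. Counted forward in the same way, their EpiKO peaks came 6.12 to 8.04 h after the WT ones. Plk1, a mitotic kinase, had 2.08-fold in EpiKO and 3.72-fold in WT, and Bub1, a checkpoint kinase, 1.97-fold in EpiKO and 3.26-fold in WT, in the authors' deposited table.

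The genes with curves most like the ring genes were found by the distance between their 4 cosine coefficients, 2 in each genotype, and the mean of Mcm2 to Mcm7. Coefficients were set to 0 where the assigned model has no rhythm, as in EpiKO for all ring genes. An assigned EpiKO rhythm thus adds to the distance from the ring genes by construction. Among 7618 genes with an assigned model and at least the median mean level, the nearest were Wdhd1 (0.046), E2f1 (0.062), Chaf1b (0.066), Tnxb (0.081) and Rpa2 (0.082), with distances in log2 units. Mapre2 (0.11), Hells (0.11), Pole (0.12), Ptges (0.12) and Adamtsl5 (0.13) followed. The ring genes themselves lay 0.0755 (Mcm5) to 0.182 (Mcm7) from their mean, so all 10 were as near as members are. Of the 10, Chaf1b is a subunit of the chromatin assembly factor that follows the fork and Hells a chromatin remodeller. Tnxb encodes a matrix protein, Mapre2 a microtubule end-binding protein and Ptges a prostaglandin E synthase, and these have no known part in DNA synthesis. Among the genes nearest to Mcm10 were Brca1 (0.20) and Clspn (0.24), of which Brca1 had 1.67-fold in EpiKO and 2.26-fold in WT, with peaks at ZT3.01 in EpiKO and ZT17.4 in WT, in the authors' deposited table. Nearest to Mcm8 were the purine salvage gene Aprt (0.0076), the histone chaperone gene Dnajc9 (0.0080) and the thymidylate kinase gene Dtymk (0.023). Each distance compares fits over the same libraries.

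Values of the whole table that bear on these calls are few. Arntl was assigned a rhythm in WT only with a weight of 0.882, and in the authors' deposited table it averaged 9.65 in EpiKO and 9.50 in WT, a sum over all exons that cannot show the deleted part. The keratinocyte markers Krt5 and Krt14 averaged 17.73 and 16.54 in EpiKO and 17.82 and 16.54 in WT on the log2 scale of the authors' deposited table. Over all genes 32.7% were fitted with a higher mean in EpiKO and 37.4% with a lower one. The counts that follow were not tested against these shares, and the marker lists are short. Of 5 basal keratinocyte genes 1 was fitted with a higher mean in EpiKO and 3 with a lower one. Of 16 mitosis genes 12 were higher and 2 lower, and of the 44 measured genes of the 3 replication lists 22 were higher and 9 lower. Markers of hair follicle had 3 of 5 lower and 0 higher, those of Langerhans cells 3 of 4 higher, those of T lymphocytes 2 of 3 higher, those of fibroblasts 2 of 5 higher, those of endothelium 3 of 3 higher and those of muscle 2 of 3 lower in EpiKO. Melanocyte markers had 1 of 4 lower, suprabasal ones 1 higher and 2 lower of 4, and adipocyte ones 0 of 3 either way. Some of the markers counted were at low levels, toward the -2.41 that may be a floor. Cdh5 stood at 0.56 in EpiKO and -1.77 in WT, and Kdr at 0.77 in EpiKO and -0.62 in WT. Myh4 stood at -1.16 in EpiKO and 0.62 in WT. The endothelial and muscle counts rest partly on such values. The muscle gene Acta1 was at 2.21 in EpiKO and 9.90 in WT, and the follicle gene Krt25 at 4.25 in EpiKO and 10.39 in WT in the authors' deposited table. Gaps in the same direction were also found for Mcmdc2 and for the fork gene Fen1, a flap endonuclease, which stood at 3.59 in EpiKO and 8.43 in WT in the authors' deposited table. Such gaps were not confined to tissue markers or to the gene lists. Among genes that share short stretches of sequence with Mcm5, Cntn2 stood at 2.22 in EpiKO and 9.26 in WT. Syt11 stood at 4.46 in EpiKO and 10.28 in WT. Other genes of that set were higher in EpiKO, such as Cenpa at 8.90 in EpiKO and 7.73 in WT. The cause of these gaps was not tested. Their part in the mean differences of the MCM genes, that of Mcm7 included, was not tested either.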

How the data were processed

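RNA of 24 EpiKO epidermis libraries was sequenced as single reads of 51 bases after a stranded polyadenylated RNA kit, per the labels' protocols. The build mm10 and the tools edgeR, featureCounts 1.6.0, HISAT2 2.2.1, Trimmomatic 0.36 and SAMtools 1.3.1 appear in the submitters' processing notes without settings, and dryR in the series design text. The authors' deposited table gives model weights from 0 to 1 and mean levels as log2 values, and how libraries were scaled was not stated. Its relative amplitudes, a score the authors made from amplitude and mean, were not used. Depth is unknown, and there are no values per library, so the planned fit across libraries was not run.

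The side that the table labels FC_LD, a label that does not itself say EpiKO, was taken as EpiKO. Models were told apart by which genotype has coefficients. Amplitudes are peak to trough, and fold is 2 to that power. Fitted levels at each time were computed from the deposited coefficients. The members, lists, motifs and rules were chosen with earlier results of these data known. Named genes are the members, Arntl, all MCM-associated genes, up to 4 genes per list by WT amplitude among assigned ones (not all are named for mitosis), the nearest patterns (10 for the ring, 3 each for Mcm8 and Mcm10, of which 1 is not reported here), and neighbours starting within 1 kb or overlapping. Acta1, Krt25, Fen1, Olfr90, Vmn2r63, Cntn2, Syt11, Cenpa, Cdh5, Kdr and Myh4 were named after their values were seen. Symbols matched 17720 of 17721 identifiers. Positions and lengths come from GENCODE M21 (mm10). A separate cosine fit with model weights and the nearest-pattern search were tried on simulated data, with rhythms larger than those of the members. That trial did not test the authors' fit or how its models were read. Alternatives were other weight limits, a minimum amplitude, a filter on low levels, summed weights, Mcm2 to Mcm7 alone, and for means a minimum difference and centring on the median. Python 3.11.15, NumPy 2.4.6, pandas 2.3.3 and Matplotlib 3.10.9 were used.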

Additional observations from a re-analysis of the deposited data

How the results depend on the processing

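Of 29 recomputed values 26 stayed close to those reported, meaning within 1.5 times for counts and within 1 SD over the members for the peak time and the amplitude. The count of 7 WT-only members was the same with no minimum weight, with minimum weights of 0.4 and 0.8, with a minimum amplitude of 0.25 (log2) and without genes under the 0.25 quantile of mean level. None of these limits removed a member, since the lowest weight was 0.814 and the smallest WT amplitude 0.451 (log2, Mcm8). Values recomputed under them, which are among the 26, were therefore bound to stay the same and are no sign of robustness. Summed model weights gave 6.15 members for WT only, 1.81 for different rhythms and 1.83 for any rhythm in EpiKO, where 1 gene was counted in each of the last 2, because partial weights of the other genes add up. With Mcm2 to Mcm7 alone the mean WT peak was ZT13.8, against ZT14.4 for all 8. With a minimum difference of 0.5 (log2), 0 members had a different mean level, where 4 were counted without it, since the differences ranged from -0.19 to 0.31. Centring on the median of all genes could change no sign, because that median was 0. No paired analysis was possible because the table holds no values per library, and replicates could not be left out for the same reason. The depth and its effect on these calls are unknown.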
